A study of Mus musculus with 6 samples.

Results

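The genes described here encode the proteasome and the enzymes that attach and remove ubiquitin, read out in hypothalamus from DBA/1 males, mice that readily develop arthritis after immunisation with collagen. They were taken as every probe whose platform symbol starts with Psma to Psmg, Ube1 to Ube4, Usp or Uchl followed by a digit, which gave 67 of 10080 probes, for 66 of 8726 named genes, Psmg3 having 2 probes. By symbol, 9 probes were for core subunits, 17 for regulatory subunits, activators and assembly chaperones, 18 for activating, conjugating and ligating enzymes, and 22 for deubiquitinating enzymes. The remaining probe, Psmc3ip, met the symbol rule but encodes a protein of meiotic recombination and not a proteasome subunit, and it was kept apart from the 4 role groups. No member was for an activating enzyme, so the conjugating group held 16 probes named Ube2 and 2 named Ube3 or Ube4.

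Ubiquitin is activated, passed to a conjugating enzyme and joined to a target protein with the help of a ligase. Chains of ubiquitin send the target to the proteasome, in which regulatory ATPases and lid subunits unfold it and strip its ubiquitin before the ring-shaped core cuts it. Deubiquitinating enzymes edit the chains or recycle them, and neurons depend on the system for protein quality control and for turnover at synapses.

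The in-house printed 2-colour arrays set a collagen sample directly against a control sample. The collagen mice received type II collagen (100 ul) mixed with an equal volume of complete Freund's adjuvant and the controls 200 ul of adjuvant alone, both at 8 weeks of age by a route the labels give as i.d., and both groups were given lipopolysaccharide at day 24. Collagen and the smaller adjuvant volume cannot be told apart, and no group was free of adjuvant or lipopolysaccharide. There were 3 biological replicates, each on 2 arrays that the labels give with the dyes in opposite orientation. The labels do not say whether a replicate was 1 mouse or a pool, so p-values reflect only how these samples vary.

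A log2 ratio below is the collagen channel over the control channel after intensity-dependent smoothing within each scan, so 1 means a doubling with collagen. Cy3 was taken to be channel A and Cy5 channel B from the order of the labels, which no source states, and with the other reading every sign would turn. The share of spots with a ratio ran from 46.1% to 84.9% over the arrays and was highest in replicate 3. In replicate 1, ratios on its array with collagen in Cy3 were spread far wider (SD 1.66), called the wide array below, than on the other 5 arrays (0.382 to 0.672), so, for members shown array by array on all 6 arrays, the mean without replicate 1 is given as well. Of 17 preset hypothalamic markers 12 had a probe, and Oxt, Pmch, Gal, Cartpt and Gnrh1 had a ratio on all 6 arrays. A ratio on all 6 arrays was also found for 1 of 5 preset markers of neurons, 2 of 5 of oligodendrocytes, 2 of 4 of astrocytes, 1 of 4 of microglia and macrophages, 2 of 5 of pituitary (Pitx1 and Scg2), 0 of 2 of T cells, 0 of 2 of erythrocytes and 0 of 3 of endothelium. Of these lists, 16 of 30 genes had a named probe. The erythrocyte list had 0 with a probe, the endothelium list 1 and the pituitary list 2, so their other genes were not measured. In such whole tissue, fewer cells of a type and less RNA per cell cannot be told apart.

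Proteasome genes are switched on together in mammals through antioxidant response elements bound by the factor Nfe2l1, so promoters of members were read for that element. The motif searched was TGACNNNGC on either strand, in the window from 250 bases before to 50 after a gene's start in RefSeq (GRCm38.p6). The first 2 windows printed are the only core and the only regulatory one that hold it, in capitals. The last, that of the tested member with the highest ratio, does not.
Psmb6 (chr11:70525107-70525406, plus strand): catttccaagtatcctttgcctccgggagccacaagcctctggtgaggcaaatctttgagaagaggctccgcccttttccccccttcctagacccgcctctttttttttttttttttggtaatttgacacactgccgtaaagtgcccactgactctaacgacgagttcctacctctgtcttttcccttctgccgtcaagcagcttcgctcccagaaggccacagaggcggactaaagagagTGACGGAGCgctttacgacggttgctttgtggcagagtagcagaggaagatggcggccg
Psme4 (chr11:30771525-30771824, plus strand): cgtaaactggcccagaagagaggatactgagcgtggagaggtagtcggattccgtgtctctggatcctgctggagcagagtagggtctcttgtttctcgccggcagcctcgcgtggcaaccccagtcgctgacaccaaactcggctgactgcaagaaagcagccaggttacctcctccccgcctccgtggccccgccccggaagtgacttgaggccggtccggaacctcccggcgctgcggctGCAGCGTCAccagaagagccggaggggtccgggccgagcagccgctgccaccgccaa
Psmd6 (chr14:14120896-14121195, minus strand): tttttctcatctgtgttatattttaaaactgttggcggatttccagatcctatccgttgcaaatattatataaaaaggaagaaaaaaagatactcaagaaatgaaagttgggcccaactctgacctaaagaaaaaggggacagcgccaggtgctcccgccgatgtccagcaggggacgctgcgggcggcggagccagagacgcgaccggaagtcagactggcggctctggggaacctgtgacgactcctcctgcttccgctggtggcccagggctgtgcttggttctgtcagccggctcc
Windows were found for 51 member genes, and 8 of 54 windows (14.8%) held the motif, against 12.4% of all 32851 windows. By role it was in 1 of 8 core windows, 1 of 12 regulatory, 1 of 16 conjugating and 5 of 17 deubiquitinating windows (29.4%). Beside Psmb6 and Psme4 the genes were Ube3b, Usp2, Usp10, Usp20, Usp25 and Usp26. No binding was measured here, and these are matches of letters.

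Members were measured on more arrays than most probes. A ratio on all 6 arrays, the condition for testing, was found for 29 of 67 member probes (43.3%) against 23.0% of all probes, and no member lacked a ratio altogether. The share was 5 of 9 in the core (55.6%), 8 of 17 in the regulatory group (47.1%), 9 of 18 in the conjugating group and 7 of 22 among deubiquitinating enzymes (31.8%). A ratio on at most 2 arrays was the case for 1 core probe (11.1%) and 8 deubiquitinating probes (36.4%), and for 43.4% of all probes. No test of these shares was run.

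**Figure D1:**
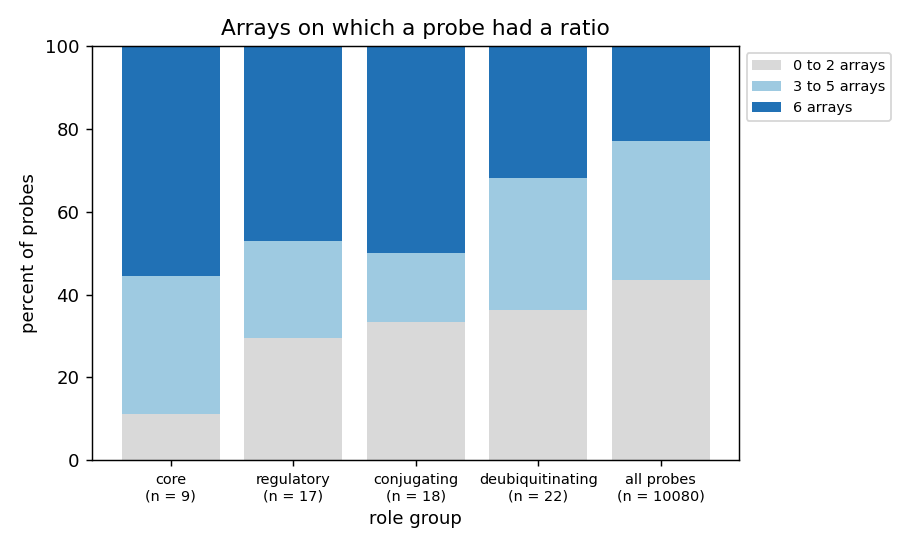
Percent of probes (vertical axis) in each role group, and of all 10080 probes, with a ratio on 0 to 2, 3 to 5 or 6 arrays. The dark part is 55.6% in the core group and 31.8% in the deubiquitinating group, against 23.0% of all probes.

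The missing ratios came mainly from channel B. Channel A was measured on all 6 arrays for 60 members (89.6%, against 89.8% of all probes), and channel B for 30 (44.8%, against 23.2%). Of the 38 members without a full set, 30 lacked channel B alone, 0 lacked channel A alone and 7 lacked both channels on some array. For Psmc1, an ATPase subunit, both channels were measured on every array but on 1 array never in the same scan. Between 38 and 42 members had a ratio on each array of replicates 1 and 2, and 53 and 66 on those of replicate 3. Ratios on replicate 3 arrays alone were found for 19 members (28.4%), against 29.9% of all probes.

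Uchl1, an abundant neuronal ubiquitin hydrolase, was among the 19. Its channel A intensity per pixel in the first scan was 621, 1562, 549, 515, 1435 and 809 over the arrays of replicates 1, 2 and 3, while channel B was rejected on the 4 arrays of replicates 1 and 2. Its log2 ratio was 0.08 with collagen in Cy5 and -0.41 with collagen in Cy3, so the signs were opposite on its only arrays, and it was not tested.

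Detection did not separate collagen from control. There was no member that 1 group had on 6 arrays and the other on 0. The widest difference was 2 arrays, for Ube2o, Ube2c and Psme3, each measured on more arrays in control. Psme3, a nuclear proteasome activator, was seen on 2 arrays in the collagen channel and on 4 in the control channel, Ube2c, which starts chains for the anaphase-promoting complex, on 2 and 4, and Ube2o on 3 and 5. In all 3 members channel A was present on 5 arrays and channel B on 3 or fewer. Each group was in channel A on 3 arrays and in channel B on 3, so rejection of channel B could touch both. For Ube2c and Psme3 the 1 array with channel B was that of replicate 3 with collagen in Cy3, where it held the control. What set these differences was not tested.

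Among tested probes, core subunits had the highest median brightness of the 4 role groups. Brightness was ranked as a percentile among the spots with a ratio in the first scan of an array, and the median over arrays was taken. It depends on the oligonucleotide as well as on the transcript, so it does not rank the abundance of transcripts. The median of the tested probes was 93.5 in the core (77.9 to 95.9), 55.7 in the regulatory group (37.6 to 89.7), 80.3 in the conjugating group (50.1 to 94.1) and 77.7 among deubiquitinating enzymes (68.7 to 96.5), against 63.2 over all tested probes. The brightest tested core spots were Psmb3, Psmb6 and Psma5, with percentiles of 95.9, 95.5 and 93.6. Among tested regulatory probes they were the lid subunits Psmd7 (89.7), Psmd13 (80.1) and Psmd3 (71.3).

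The chain-elongating enzyme Ube4b (94.1), Ube2r2, a partner of cullin ligases (89.4), and Ube2e1 (88.6) led the tested conjugating probes, and Usp11 (96.5), Usp9x (88.8) and Usp54 (85.2) the tested deubiquitinating ones. Members without a full set of ratios were both bright and dim, and those named next were chosen after their values were seen. Their percentiles come only from arrays where they had a first-scan ratio, so they and the tested members were not ranked among the same spots. The ubiquitin receptor Psmd4 had a percentile of 94.8 with a ratio on 2 arrays and the base subunit Psmd2 94.4 with a ratio on 3. Ube2w stood at 92.7, Psmg2 at 92.4, Usp24 at 91.1 and Psmb2 at 90.1, each with a ratio on 2 to 5 arrays. Psma8, the testis form of an alpha subunit, had a percentile of 11.0 and a ratio on 1 array, and Usp26, known from testis, had 5.55 and also 1 array. Psmd4, Ube2w, Psmg2 and Usp26 were ranked on replicate 3 arrays alone, and Psma8 on the wide array alone. The dimmest tested member was Psme4, at 37.6.

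**Figure D2:**
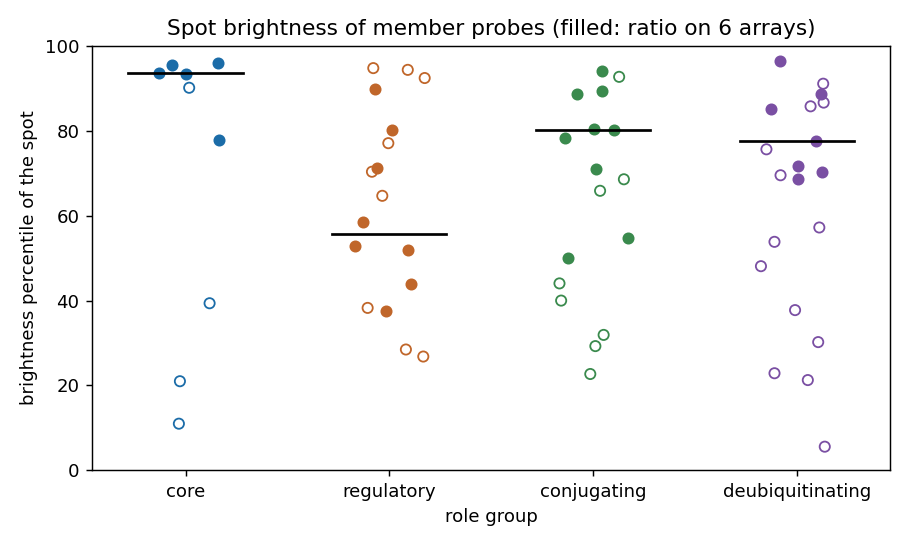
Brightness percentile of each member probe with a first-scan ratio (vertical axis, 0 to 100) by role group. Each is the median over the arrays on which the probe had that ratio, which differ between probes. Filled points have a ratio on 6 arrays and open points on fewer; the line is the median of the filled points. It lies at 93.5 in the core and at 55.7 in the regulatory group.

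The direct comparison addressed transcripts that differ in the hypothalamus between collagen-immunised mice and controls. No member passed the threshold. The limma adjusted p, with a threshold of 0.05, was 0.872 at its lowest, so 0 of 29 tested members and 0 of all 2316 tested probes (0.0%) were called. At an unadjusted p under 0.05 there was 1 member, Psmd6, where 25 of all probes (1.08%) were counted. Of the 29 members 9 had positive and 20 negative log2 ratios, 31.0% positive against 33.7% of all tested probes. Their median was -0.09, as over all tested probes, which lay at -0.09.

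The 95% interval of the mean lay inside a doubling and a halving for 24 of 29 members (82.8%), against 89.9% of all tested probes. These were all 5 core members, 6 of 8 regulatory, 8 of 9 conjugating and 5 of 7 deubiquitinating members. The 5 exceptions were Psmd6, Ube2q1, Usp5, Usp9x and Psmd1, each with its widest value on the wide array. The median half-width of the interval was 0.48 over the members and 0.45 over all tested probes.

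**Figure D3:**
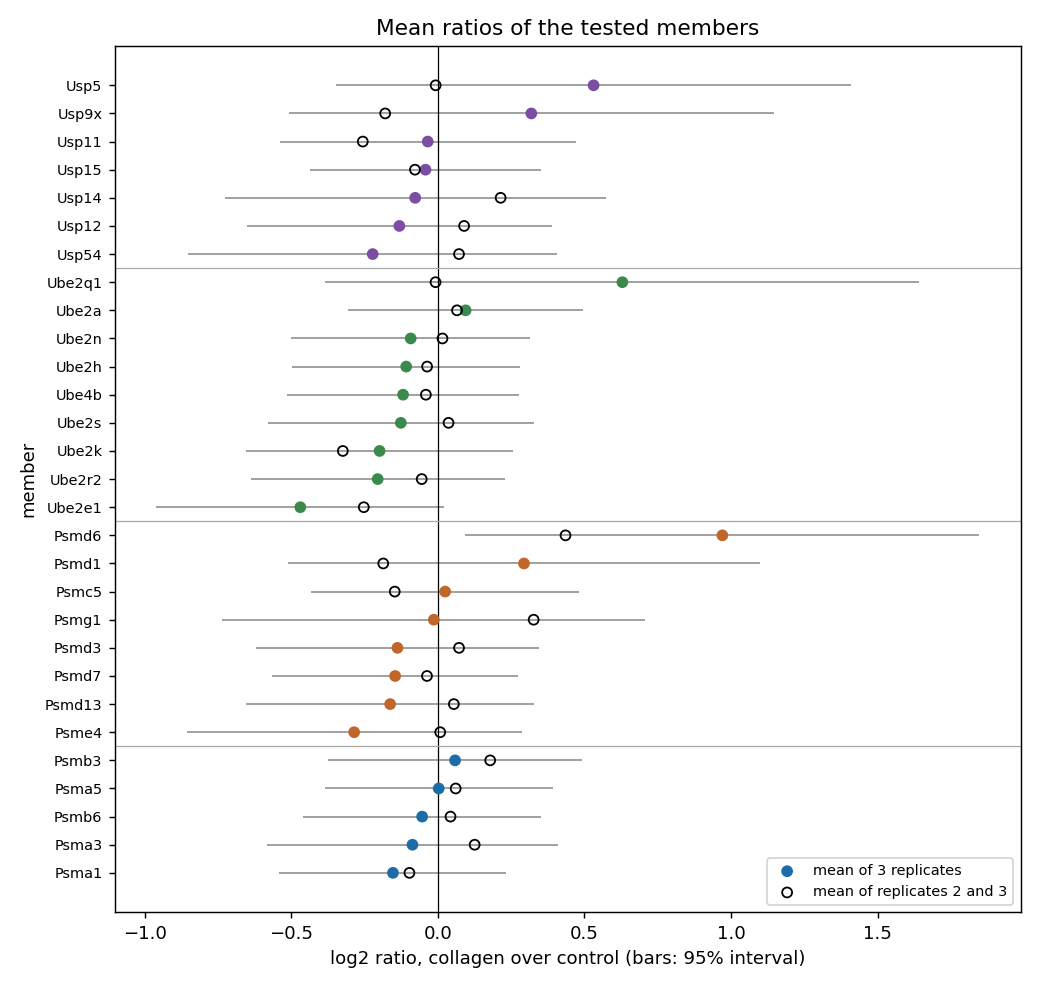
Mean log2 ratio of collagen over control (horizontal axis) for the 29 tested members, coloured by role group in the order core, regulatory, conjugating and deubiquitinating from the bottom. Bars are 95% intervals from limma over 3 replicates and open circles the mean of replicates 2 and 3; only the bar of Psmd6 does not cross 0, and the open circle of Ube2q1 lies at -0.01 against 0.63 for its filled point.

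In the lines that follow, array values are given for replicates 1, 2 and 3, first with collagen in Cy5 and then with collagen in Cy3. The core particle had a median log2 ratio of -0.05 over 5 tested subunits, with 2 positive and 3 negative and a range of -0.15 to 0.06. Without replicate 1 the median was 0.06. Psmb6 (Entrez Gene 19175) carries the caspase-like cutting activity and was the one catalytic subunit with a named probe. Its ratios were 0.09, -0.07 and 0.17, then -0.58, 0.34 and -0.27, and the orientations overlap. The mean was -0.05 ± 0.16 (SE, n = 3; limma adjusted p = 0.932), or 0.04 without replicate 1.

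Psma3, a subunit of the outer alpha ring, read 0.08, 0.12 and 0.74, then -1.10, -0.09 and -0.26. It was positive on every array with collagen in Cy5 and negative on every array with collagen in Cy3. The mean was -0.09 ± 0.20 (SE, n = 3), or 0.13 without replicate 1. Psma1, another alpha subunit, read -0.06, -0.87 and -0.10, then -0.47, 0.51 and 0.08, with a mean of -0.15 ± 0.16, or -0.10 without replicate 1, and overlapping orientations. Its spot was read as saturated in all 3 scans of 1 array. Psmb3, a beta subunit without cutting activity, read 0.18, 0.09 and 0.14, then -0.54, 0.59 and -0.10, with a mean of 0.06 ± 0.17, or 0.18 without replicate 1. Psma5 was at 0.0030 ± 0.16.

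Over 8 tested regulatory members, 3 positive and 5 negative, the median was -0.08, and 0.03 without replicate 1. Psmd6 (Entrez Gene 66413), a lid subunit, had the highest ratio of the tested members. Its ratios were 0.31, 1.04 and 0.33, then 3.77, 0.01 and 0.36, so it was higher with collagen on 6 of 6 arrays, with 1 array far above the others. Its brightness percentile was 43.9, and the first scan gave it a ratio on 4 arrays. The 0.31 and the 0.36 came from later scans alone. Psmd6 was the only member higher on all 6, against 6 of all tested probes (0.259%), and no member was lower on all 6, against 12 (0.518%). The mean was 0.97 ± 0.35 (SE, n = 3; 95% interval 0.09 to 1.85; limma adjusted p = 0.872), and the replicate values were 2.04, 0.52 and 0.35.

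On the array at 3.77 the first scan read 11270 per pixel in the collagen channel and 525 in the control channel. The spot was read as saturated in all 3 scans. In replicate 2 the first scan read 780 and 878 with collagen in Cy5, and 574 and 613 with collagen in Cy3. The fourth block column of the slide held 12 of the 29 tested members. The probe is printed there, as were 7 of the 10 members above 2 on the array at 3.77. With loess within each print tip it read 0.07, 0.74 and 0.31, then -0.02, -0.04 and -0.07, higher on 3 of 6 arrays, with a mean of 0.17. Without replicate 1 the mean was 0.44, and without replicate 3 it was 1.28, the 1 leave-out in which Psmd6 passed (limma adjusted p = 0.0357).

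Psmd1, the large scaffold subunit at the base, read -0.08, 0.08 and -0.65, then 2.59, -0.23 and 0.06. The single high array set its mean of 0.29 ± 0.32, which was -0.19 without replicate 1. Psme4, an activator that caps the core in place of the regulatory particle, read -0.15, -0.32 and -0.33, then -1.60, 0.27 and 0.41, with a mean of -0.29 ± 0.23, or 0.01 without replicate 1. The other 5 tested members, Psmc5, Psmd3, Psmd7, Psmd13 and the assembly chaperone Psmg1, lay between -0.16 and 0.03.

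Over 9 tested conjugating members, 2 positive and 7 negative, the median was -0.12, and -0.04 without replicate 1. Ube2e1 (Entrez Gene 22194), a conjugating enzyme, was lowest of the tested members. Its ratios were -2.50, -1.55 and -1.06, then 0.70, 0.95 and 0.64, so it was far lower with collagen in Cy5 and higher with collagen in Cy3 in every replicate. The orientations do not overlap. The mean was -0.47 ± 0.20 (SE, n = 3; limma adjusted p = 0.872). It was -0.25 without replicate 1 and -1.0 without the wide array, which leaves replicate 1 with its Cy5 orientation alone.

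Ube2q1 read 0.21, 0.16 and 0.35, then 3.60, -0.25 and -0.29. Its mean of 0.63 ± 0.41 rested on 1 array and was -0.01 without replicate 1. Ube2r2 read 0.05, -0.43 and 0.01, then -1.07, 0.28 and -0.08, with a mean of -0.21 ± 0.17, or -0.05 without replicate 1. Ube2s, which lengthens chains for the anaphase-promoting complex, read 0.29, 0.44 and 0.18, then -1.19, -0.13 and -0.34. It was positive on all arrays with collagen in Cy5 and negative on all with collagen in Cy3, with a mean of -0.13 ± 0.18, or 0.04 without replicate 1. The other 5 members, Ube2a, Ube2h, Ube2k, Ube2n and Ube4b, lay between -0.20 and 0.09.

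Over 7 tested deubiquitinating members, 2 positive and 5 negative, the median was -0.04, and -0.01 without replicate 1. Usp5, which takes free ubiquitin chains apart, read -0.07, -0.21 and 0.15, then 3.28, 0.15 and -0.13. Its mean was 0.53 ± 0.35, or -0.01 without replicate 1. Usp9x read 0.07, -0.39 and -0.24, then 2.56, -0.12 and 0.02, with a mean of 0.32 ± 0.33, or -0.18 without replicate 1. In both genes 1 array lay far above the other 5.

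Usp54 read 0.16, -0.15 and 0.77, then -1.78, -0.32 and -0.01, with a mean of -0.22 ± 0.25, or 0.07 without replicate 1. Usp14, which trims chains at the proteasome itself, read -0.18, -0.12 and 1.02, then -1.14, -0.19 and 0.15. Its mean was -0.08 ± 0.26, or 0.21 without replicate 1, with replicate values of -0.66, -0.15 and 0.58 that span 0. Usp11, Usp12 and Usp15 lay between -0.13 and -0.03.

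**Figure D4:**
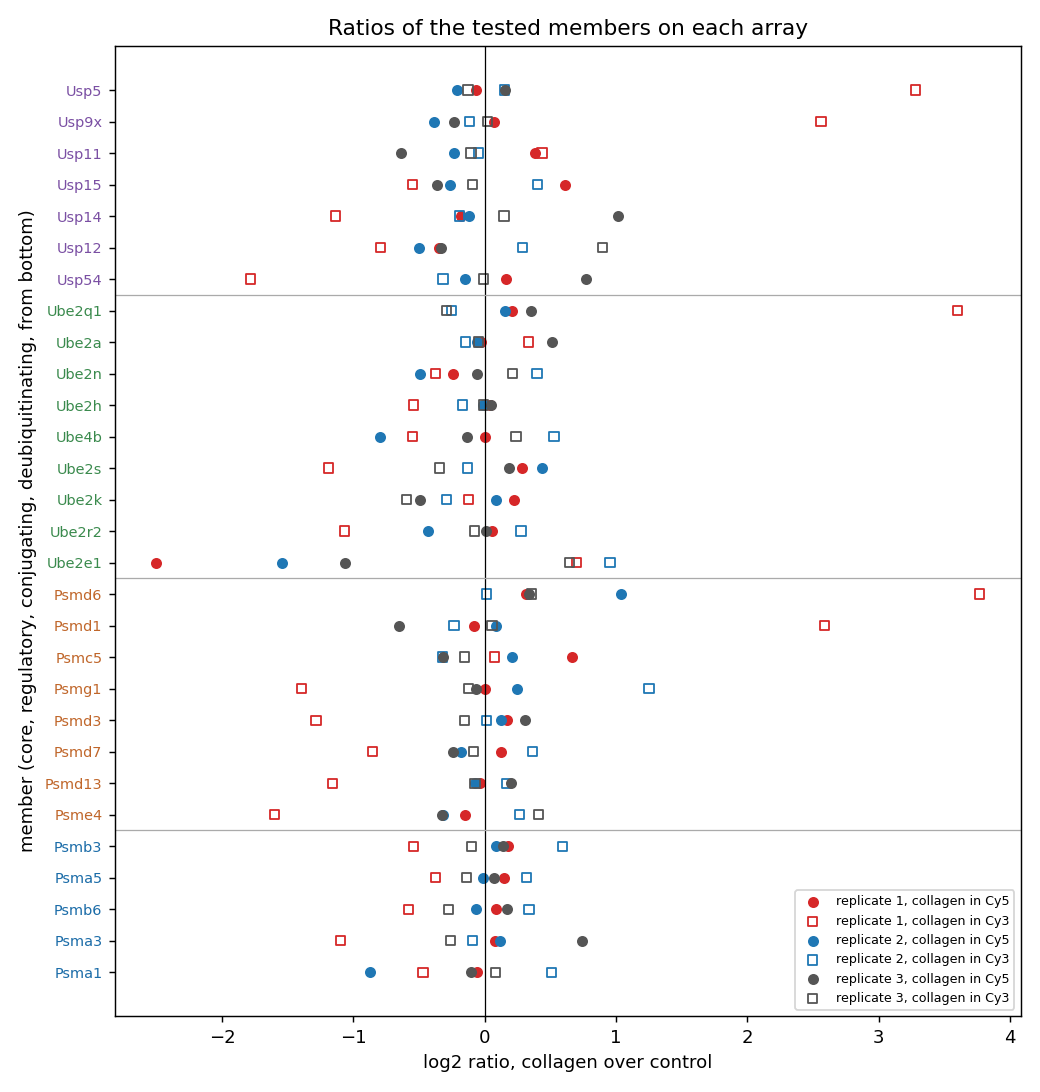
Log2 ratio of collagen over control (horizontal axis) of the 29 tested members on each of 6 arrays; colour marks the replicate, filled circles collagen in Cy5 and open squares collagen in Cy3. The open red squares of replicate 1 run from -1.78 to 3.77, and for Ube2e1 all filled circles lie below -1 and all open squares above 0.6.

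Of 8 preset immune-inducible genes, Usp18 was found under its own name and Ube1l under its present symbol Uba7, which RefSeq pairs with it, while Psmb8, Psmb9, Psmb10, Psme1, Psme2 and Ube2l6 were not found by name. Uba7, the activating enzyme for ISG15, is no member by symbol and had ratios on the replicate 3 arrays alone, 0.83 with collagen in Cy5 and 0.12 with collagen in Cy3. Both were positive, and it was not tested. Usp18, an interferon-induced enzyme that removes the ubiquitin-like protein ISG15, had ratios on 5 arrays, 0.10 and -0.30 with collagen in Cy5 in replicates 1 and 2, and -0.31, -0.38 and 0.27 with collagen in Cy3. The signs were mixed. Fitted on replicates 1 and 2, it was at -0.22 ± 0.22 (SE, n = 2; limma adjusted p = 0.933). Of the preset Psmb5, Psmb7, Uchl5, Ube3a and Psmd14, 0 were found by name.

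Admitting probes with both arrays of at least 2 replicates added 9 member probes, of which 3 were positive, 6 negative and 0 past the threshold or at an unadjusted p under 0.05. They ranged from -0.46 for Psmc1 to 0.98 ± 0.39 for Ube2t, which acts in the Fanconi anaemia pathway of DNA repair (SE, n = 2; limma adjusted p = 0.933). The arrays of Ube2t went both ways, at 1.00, -0.62 and 1.33 with collagen in Cy5 and 2.48 and -0.88 with collagen in Cy3. Its mean rests on replicates 1 and 3 (1.74 and 0.22) and leaves out the -0.62, from replicate 2. Psmc1 had -0.86 and -0.06 in replicates 1 and 2. On the wide array Ube2t stood at 2.48 and Psmc1 at -1.995. The 2 probes of Psmg3 were at -0.25 and -0.09. The other added members were Psmb2 at 0.03, Ube2cbp at 0.06, Usp10 at -0.05 and Usp24 at -0.24.

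On the wide array many members stood far from 0 at once. Of 39 members with a ratio there, 20 (51.3%) were beyond 1 in either direction, 10 up and 10 down, against 10 of 238 values (4.2%) on the other 5 arrays and 46.3% of all probes on that array. The 10 high values ran from 2.48 for Ube2t to 4.81 for Usp50. Of the 10 probes 7 lay in the fourth block column, which held 12 of the 29 tested members. The share of high values in that column over all probes was not counted. The low values of members ran from -1.995 for Psmc1 to -1.07 for Ube2r2, in all 4 block columns. For 18 of the 29 tested members this array had the value farthest from 0. The same count was not made over all tested probes. Their SD was 1.41 on this array, against 0.36 to 0.59 on the other 5 arrays.

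The ratio of the channels without regard to group was compared as well, since a collagen difference cancels in it. In channel B over channel A, 0 of 29 members passed with limma, against 10 of all tested probes (0.432%), and 1 member had an unadjusted p under 0.05, against 254 probes (11.0%). That member was Ube2e1, at -1.23 ± 0.24 (SE, n = 3; limma adjusted p = 0.0762). Channel A was the brighter on all 6 arrays after smoothing. Without replicate 1 it was -1.05 and past the threshold (limma adjusted p = 8.33e-05), and with the first scan alone -1.28 (limma adjusted p = 0.0354). Next came Usp54 at 0.48 ± 0.25 and Ube2s at 0.43 ± 0.23, with limma adjusted p of 0.51 and 0.527.

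In 3 of 29 members, Ube2e1, Ube2s and Psma3, the sign of the collagen ratio followed the dye orientation on all 6 arrays. The same was seen for 360 of 2316 tested probes (15.5%), so the members were not above the background. Over all tested probes the 2 arrays of a replicate correlated at -0.199, -0.754 and -0.321 in replicates 1, 2 and 3 after turning to collagen over control, as a description across probes that share a slide. The replicate means correlated at 0.157 between replicates 1 and 2, -0.12 between 1 and 3 and -0.126 between 2 and 3.

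**Figure D5:**
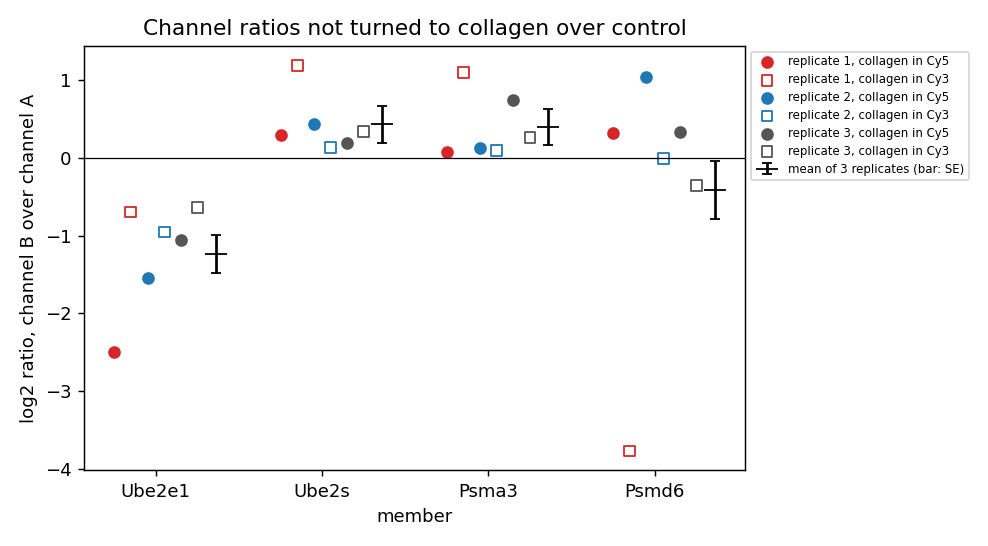
Ratio between channels B and A on the log2 scale (vertical axis) on each array for 4 members; colour marks the replicate, filled circles collagen in Cy5, open squares collagen in Cy3 and the black bar the mean ± SE of 3 replicates. All 6 points of Ube2e1 lie below 0 and all of Ube2s and Psma3 above it, while Psmd6 has 1 point far below its others.

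Other genes of the pathway came from a preset list of ubiquitin and ubiquitin-like genes, ligases, shuttle factors and regulators that are no members. Of its 95 names 50 had a probe, and 21 of 52 probes (40.4%) were tested. None passed the threshold in either direction, and 0 had an unadjusted p under 0.05. Of the 21, 1 was positive and 20 were negative, 95.2% below 0 against 66.3% of all tested probes, with a median of -0.14 against -0.09. Without replicate 1 the count below 0 was 7 of 21 (33.3%, against 53.3% of all), and without the wide array it was 8 (38.1%, against 47.7%).

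The positive gene was Ubqln4, a shuttle factor that carries ubiquitinated proteins to the proteasome, at 1.19 ± 0.67 (SE, n = 3; limma adjusted p = 0.872) and higher on 3 of 6 arrays, with 6.85 on the wide replicate 1 array and between -0.45 and 0.90 on the others. Nedd8, the ubiquitin-like modifier of cullins, was at -0.22 ± 0.24 and Skp1, a subunit of cullin ligases, at -0.17 ± 0.16. Rad23b, another shuttle factor, was at -0.26 ± 0.24, and Nfe2l1 was at -0.04 ± 0.16.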

How the data were processed

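Hypothalamic RNA was measured on 6 arrays. The deposited spot intensities in channels A and B were background-subtracted and summed over the pixels of a spot, per the file headers, and were 0 where a channel had been rejected. The saturation factor, a fraction, was used as deposited, and values below 1 were read as saturated because such spots were brighter. The authors' value table held a score per probe, a log ratio of unstated base, direction and normalization, with column medians of -0.0181 to 0.0015. On every array it correlated positively, at 0.671 to 0.906, with print-tip loess ratios turned to collagen over control. It was therefore read in the same direction as the ratios here. The sources used here do not name the quantification software. The 3 files of each array were treated as repeat scans.

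Scan rows sorted by block and spot position gave probes 1 to 10080, and with that order detection correlated with the authors' table at 0.621 to 0.904. Symbols came from the platform table, with 1 symbol for 9066 probes, several for 12 and none for 1002. Entrez identifiers matched all 66 member genes to RefSeq (GRCm38.p6).

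Log2 ratios of spots with both channels were smoothed by loess (span 0.3) in each scan and averaged over scans, leaving out saturated scans where another was clean. They were turned to collagen over control and averaged over the 2 arrays of a replicate. A probe needed a ratio on all 6 arrays and a foreground over 1.5 times the background in 1 channel on 4 arrays, which removed none of the 2316. Means of 3 replicates were tested against 0 with limma 3.58.1 in R 4.3.3 (two-sided, Benjamini-Hochberg over all tested probes, threshold 0.05), a procedure also tested on simulated data. Figures were drawn with matplotlib 3.10.9.

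The members and the gene lists were chosen with earlier results of these data known. Array values were given for the 3 tested members of each role group with the smallest p, those with 1 sign on 6 arrays, preset genes, and the 3 members with the smallest p between channels. Other tested members were given by range.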

Additional observations from a re-analysis of the deposited data

Results flagged for a closer look

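For 9 of the 29 tested members, 1 array stood apart from the other 5 by a gap above Dixon's critical share of the whole range. Chance does this in about 1 in 20 groups, but among all 2316 tested probes the share was 23.0% (532 probes, 494 of them on the replicate 1 array with the wide spread), beside 31.0% of the members. All 9 values came from replicate 1, from its array with collagen in Cy3. They were Psmd6 at 3.77, Ube2q1 at 3.6, Usp5 at 3.28, Psmd1 at 2.59 and Usp9x at 2.56 on the high side. On the low side were Psme4 at -1.6, Psmd3 at -1.28, Psmd13 at -1.16 and Ube2h at -0.542. Of the 5 high ones, Usp5 was printed in the first block column and the other 4 in the fourth, which held 12 of the 29.

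The collagen ratio had opposite signs in the 2 dye orientations, on 3 arrays each, for 3 members. As channel B over channel A these were Ube2e1 at -1.23 (limma adjusted p = 0.0762), Ube2s at 0.428 (limma adjusted p = 0.527) and Psma3 at 0.399 (limma adjusted p = 0.579). None passed the test of that difference.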

How the results depend on the processing

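No member and no probe passed under median centring, print-tip loess, normexp, the first scan, the authors' table, the wider or stricter filter, centred replicates, collagen in Cy3 only, or without the fourth block column. The same held without the replicate 1 array with collagen in Cy3, an alternative chosen after seeing the data, as were all alternatives of the pathway list. Fewer than 29 members were fitted with the first scan (26), with the authors' values (20) and without the fourth block column (17). The stricter filter left 7 members among 316 probes. Psmd6 was in none of these smaller fits, so they could not call it. With the 2 arrays of a replicate as a replicate block (correlation -0.295) 0 members and 0 probes passed. With collagen in Cy5 only, 1 member (Ube2e1 at -1.7) and 34 probes passed. In a fit of 1 orientation alone, collagen and dye cannot be told apart. Leaving out a replicate gave 0 to 1 members and 0 to 30 probes, all from the fit without replicate 3. Probes at an unadjusted p under 0.05 numbered 25, against 4 to 69 under alternatives other than collagen in Cy5 only (365) and without replicate 3 (165). Between the channels 1 member passed with the first scan and 0 to 1 without a replicate.

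Group medians kept within the spread of replicates apart from 3. With collagen in Cy3 only they were 0.0468 (conjugating) and 0.0943 (deubiquitinating), and the stricter filter left 1 deubiquitinating member at -0.222 and no regulatory one. Without a replicate they ran from -0.136 to 0.0609 (core), -0.252 to 0.0314 (regulatory), -0.17 to -0.0365 (conjugating) and -0.0386 to 0.0496 (deubiquitinating). A foreground over 1.5 times background in both channels left 4 of 7 deubiquitinating probes with a full set. The pathway count below 0 was 11 with collagen in Cy5 only, 5 of 5 under the stricter filter, 9 of 11 without the fourth block column, 8 of 21 without the replicate 1 array, and 7 to 20 without a replicate.

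Signs of single members turned often, and the cause was not tested. Without the replicate 1 array they turned for Ube2s (0.12), Usp14 (0.0823), Usp54 (0.102), Usp5 (-0.0267), Psma3 (0.11), Usp9x (-0.0962), Psmb6 (0.0583) and Psmd1 (-0.15). With collagen in Cy5 only they turned for Ube2s (0.302), Usp14 (0.239), Usp54 (0.259), Usp5 (-0.04), Psma3 (0.312), Usp9x (-0.184), Psmb6 (0.0655) and Psmd1 (-0.215). With collagen in Cy3 only they turned for Psmb3 (-0.0163), Ube2e1 (0.765) and Psma1 (0.0397). The authors' table, on its own scale, gave Ube2s 0.0459, Psmb6 0.0108, Psmb3 -0.0618 and Psma1 0.011. Psma3 was 0.0803 with print-tip loess and Psmb3 -0.0376 with median centring. Usp14 was 0.0728 with normexp, 0.00113 with centred replicates and 0.00609 without the fourth block column, and Psmb6 was 0.0249 with centred replicates. Ranges without a replicate were -0.265 to 0.0366 for Ube2s, -0.407 to 0.214 for Usp14, -0.523 to 0.0723 for Usp54, -0.00781 to 0.968 for Ube2q1, -0.0074 to 0.811 for Usp5, -0.249 to 0.126 for Psma3, -0.18 to 0.604 for Usp9x, -0.148 to 0.0433 for Psmb6, -0.186 to 0.59 for Psmd1, -0.0814 to 0.179 for Psmb3, -0.599 to -0.252 for Ube2e1, -0.291 to -0.0549 for Ube2r2 and -0.45 to 0.00816 for Psme4. Psmd6 kept its sign in all 12 alternatives that measured it, from 0.165 to 1.38, and Ube2r2 in all 16. Psmd6 was positive on all 6 arrays, so alternatives that only average or leave out those values could not turn its sign. At 0.165, with print-tip loess, its arrays went both ways. The number of arrays and spots rejected in channel B limit what could be tested.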
